A study of Mus musculus with 9 samples.

Results

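The 4 genes that encode opioid peptide precursors (Penk, Pdyn, Pomc and Pnoc) and the 4 that encode opioid receptors (Oprm1, Oprd1, Oprk1 and Oprl1) were followed in the nucleus accumbens of mice after repeated cocaine and after withdrawal from it. They were picked by gene symbol, are 8 of the 21423 genes in the expression table, and all 8 were detected in all 9 lanes. The animals were adult male C57BL/6 mice, 2 to 5 months old, that received 1 intraperitoneal injection a day for 7 days. The withdrawal group received cocaine and then was left undisturbed in its cage for another 8 days before harvest. The cocaine group was killed 24 h after the last dose, and the saline group (10 ml/kg a day) was killed 24 h after its last injection. The cocaine dose is given as 10 or 20 mg/kg a day, without a link from dose to library. Equal amounts of RNA from 8 mice were pooled for each group, and the 1 poly(A) library of each pool was sequenced in 3 lanes. Each group is therefore 1 library with 3 technical lanes, the spread between lanes covers sequencing alone, and no p-value for a treatment can be given. The withdrawal library differs from the saline library both in cocaine and in the time since the last injection, and these cannot be told apart.

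Opioid peptides are cut from large precursor proteins. Penk gives the enkephalins, which act mainly on the delta and mu receptors, Pdyn gives the dynorphins, which act mainly on the kappa receptor, Pomc gives beta-endorphin along with melanocortins and corticotropin, and Pnoc gives nociceptin, the ligand of Oprl1. The receptors encoded by Oprm1 (mu), Oprd1 (delta), Oprk1 (kappa) and Oprl1 (nociceptin) couple to inhibitory G proteins, which lower cyclic AMP, open potassium channels and close calcium channels. In the striatum, Penk is made chiefly by medium spiny neurons that carry the D2 dopamine receptor and Pdyn by those that carry the D1 receptor, and dynorphin acting on kappa receptors of dopamine terminals reduces dopamine release.

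Levels are in RPKM (reads scaled to gene model length and to the library total), so levels of different genes can be set side by side only as far as the gene models match the transcripts present. Differences are between means of log2(RPKM + 0.5) over the 3 lanes of each library, ± the standard error (SE) from the lanes, a scale that understates the change of low genes. A gene was called changed when 2 libraries differed by at least 1.5 times on that scale and their lanes did not overlap. Of all genes, 14051 reached 1 RPKM on average across all lanes and were compared, and all 8 opioid genes were among them. Library totals were 19452882 for withdrawal, 24219333 for cocaine and 26006605 for saline. Folds are ratios of the deposited library values, with an exact 95% binomial interval on the reads of both libraries that covers counting error only. All 8 general striatal markers, among them Ppp1r1b, Pde10a and Gad1, were detected in all 3 groups. Their summed level was 975 to 976 RPKM over the withdrawal lanes, 756 to 821 RPKM over the cocaine lanes and 1029 to 1054 RPKM over the saline lanes. Gene by gene the picture differed from this sum. In withdrawal against saline 6 of the 8 differences were positive and 2 negative, with a median of 0.23. In cocaine against saline 4 were positive and 4 negative, with a median of -0.043. Markers of the cortex, which lies near the accumbens, were also detected, and the summed level of 8 of them, none at 0, was 19.3 to 20.9 RPKM over the withdrawal lanes, 20.7 to 24.5 RPKM over the cocaine lanes and 32.3 to 35.4 RPKM over the saline lanes; their part in the results was not tested. In tissue of mixed cells, fewer cells of a type and less RNA per cell cannot be told apart.

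Penk stood far above the other opioid genes and was among the most abundant transcripts of the tissue, with rank 15 of 21423 in the withdrawal library, 17 in the cocaine library and 16 in the saline library. In all 3 libraries Oprl1 came next, then Pdyn, then Pnoc, then Oprk1, and no lanes overlapped between neighbours in this part of the order. The lower end of the order differed between libraries. In the saline library Oprk1 was followed by Pomc, whose lanes overlapped its own, then by Oprd1 and last by Oprm1, at 0.908 RPKM. In the cocaine library Oprm1 stood above Oprd1 with overlapping lanes, and Pomc was lowest, at 1.52 RPKM. In the withdrawal library Oprk1, Oprm1, Oprd1 and Pomc followed in that order, and each overlapped the lanes of the next. The order depends on the gene models, above all for Oprm1, whose model is 8548 bp long against 2420 bp for its longest transcript in the GENCODE annotation. How another model would move the level of Oprm1 depends on which exons carried the reads, and this was not analysed. The plot of levels by lane shows all 8 genes.

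**Figure D1:**
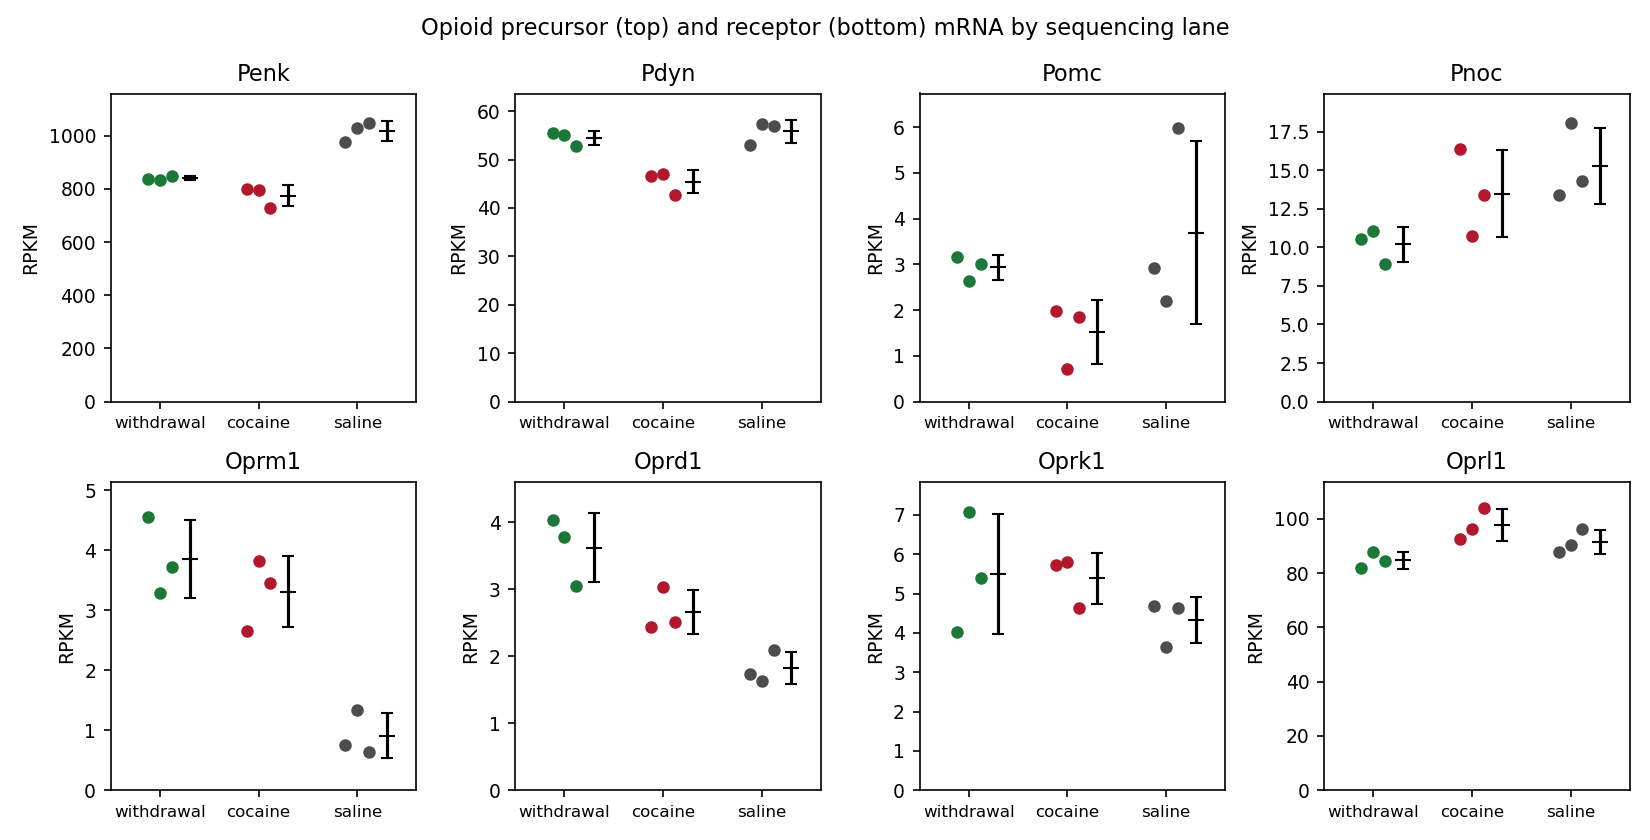
Level of each opioid gene in RPKM (vertical axis, from 0) in the withdrawal, cocaine and saline libraries. Each coloured point is 1 lane in the order of the lane numbers, and the black bar beside the points is the mean ± SD of the 3 lanes of 1 library. The Oprm1 points of the saline library lie at or under 1.34 RPKM, below all withdrawal and cocaine lanes.

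Penk, the enkephalin precursor, had 839, 832 and 848 RPKM in the withdrawal lanes, 799.6, 795 and 729 RPKM in the cocaine lanes, and 975, 1029.5 and 1049 RPKM in the saline lanes. The 3 libraries did not overlap in any lane, with saline highest and cocaine lowest, but no difference reached 1.5 times. The cocaine library held 0.765 times the saline level (95% interval 0.749 to 0.781), a log2 difference of -0.39 ± 0.054. The withdrawal library held 0.832 times the saline level (0.814 to 0.850), a log2 difference of -0.28 ± 0.033, and 1.09 times the cocaine level (1.06 to 1.11). These intervals are narrow because each library held at least 26698.9 reads of Penk. The gene model of Penk is short, at 1634 bp, and short genes as a class were lower than long ones in both cocaine-treated libraries. After the median difference of genes of like length was subtracted, the Penk differences came to -0.17 for cocaine and -0.023 for withdrawal, each against saline. A830012C17Rik, a transcript on the opposite strand that shares 233 bp of exon with Penk in the GENCODE annotation of GRCm38, had means of 14.96, 13.5 and 12.4 RPKM in the withdrawal, cocaine and saline libraries. The sources used here name no strand-specific step, so reads of the shared stretch could not be assigned to one strand.

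Pdyn, the dynorphin precursor, had 55.5, 55.0 and 52.8 RPKM in the withdrawal lanes, 46.5, 47.0 and 42.7 RPKM in the cocaine lanes, and 53.1, 57.3 and 57.0 RPKM in the saline lanes. The cocaine lanes lay below all the others, while the withdrawal and saline lanes overlapped. Pdyn was at 0.819 times the saline level in the cocaine library (95% interval 0.768 to 0.874), a log2 difference of -0.29 ± 0.056 (-0.19 after length centring) that was not called. In the withdrawal library it was at 0.983 times the saline level (0.920 to 1.05) and at 1.20 times the cocaine level (1.12 to 1.29). Tac1, the substance P precursor made by the same D1 medium spiny neurons, fell by 0.75 ± 0.066 in the cocaine library, to 19.0 ± 1.35 RPKM against 32.3 ± 1.24 RPKM in the saline library (SD over 3 lanes). As deposited, the ratio of Pdyn to Tac1 was higher in both treated libraries than in saline, without overlap of lanes. It was 2.44 ± 0.0717 in withdrawal, 2.40 ± 0.270 in cocaine and 1.73 ± 0.135 in saline (SD over 3 lanes). This ratio was not centred by length.

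Pomc, the precursor of beta-endorphin, was the only precursor with a call. It had 3.16, 2.64 and 3.01 RPKM in the withdrawal lanes, 1.99, 0.715 and 1.86 RPKM in the cocaine lanes, and 2.91, 2.203 and 5.98 RPKM in the saline lanes. All cocaine lanes lay below all withdrawal and saline lanes, and the saline lanes were widely spread, with 1 lane more than 2 times the others. These levels rest on 65 reads in the withdrawal library, 43 in the cocaine library and 108 in the saline library, so sequencing depth limits them more than those of any other opioid gene. Pomc fell by 1.02 ± 0.50 in the cocaine library against saline, a fold of 0.428 (95% interval 0.247 to 0.717). After length centring the difference was -0.70 and the lanes overlapped, so the call was lost. Against the cocaine library, Pomc was called higher in the withdrawal library (0.83 ± 0.34, fold 1.88, 1.06 to 3.41), and without cocaine lane 2 this difference was 0.50 and no call. Its difference between withdrawal and saline was -0.19 ± 0.38, with overlapping lanes.

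In the brain, Pomc is made mainly in the hypothalamus, and hypothalamic and septal marker genes differed between the same libraries. The summed level of 10 such genes, none at 0, was 149 to 181 RPKM over the withdrawal lanes, 157 to 194 RPKM over the cocaine lanes and 253 to 273 RPKM over the saline lanes. Npy is among them and was also listed as an interneuron marker, and abundant genes weigh most in such a sum. The median difference of the 10 genes from saline was -0.49 in withdrawal (1 positive, 9 negative) and -0.45 in cocaine (3 positive, 7 negative). After length centring these medians were -0.33 and -0.21. Of these 10 genes, 1 was called higher (Agrp) and 3 lower in withdrawal against saline, beside 3.96% and 3.37% of all tested genes. In cocaine against saline 0 were called higher and 2 lower, beside 2.93% and 2.41%. Pmch, which encodes melanin-concentrating hormone, averaged 0.850 RPKM in the withdrawal library, 0.879 RPKM in the cocaine library and 4.32 RPKM in the saline library. Of 5 pituitary markers with values, Pomc among them, Gh was at 0 in the withdrawal and saline libraries and Prl at 0 in the cocaine and saline libraries. Gh was above 0 in the cocaine library and Prl in the withdrawal library, and no other pituitary marker was at 0 in any library. Their summed level, Pomc included, was 3.25 to 3.74 RPKM over the withdrawal lanes, 1.77 to 2.34 RPKM over the cocaine lanes and 2.68 to 6.13 RPKM over the saline lanes. The part of neighbouring tissue in the Pomc result was not tested.

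Pnoc, the nociceptin precursor, had 10.6, 11.05 and 8.94 RPKM in the withdrawal lanes, 16.4, 10.7 and 13.4 RPKM in the cocaine lanes, and 13.4, 18.03 and 14.3 RPKM in the saline lanes. All withdrawal lanes lay below all saline lanes, and the cocaine lanes overlapped both. The withdrawal level was 0.684 times the saline level (95% interval 0.571 to 0.819), a log2 difference of -0.55 ± 0.15 just under the size needed for a call. After length centring the difference was -0.35. With single lanes left out it ranged from -0.64 to -0.43, and it was called in 3 of 6 cases (without withdrawal lane 2, saline lane 1 or saline lane 3). The cocaine level was 0.916 times the saline level (0.785 to 1.07), an interval that includes no difference.

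Oprm1, the mu receptor that binds endorphins, enkephalins and morphine, showed the largest difference of the 8 genes from saline in both cocaine-treated libraries. It had 4.56, 3.28 and 3.73 RPKM in the withdrawal lanes, 2.66, 3.82 and 3.45 RPKM in the cocaine lanes, and 0.756, 1.34 and 0.634 RPKM in the saline lanes. The lowest lane of either treated library was higher than the highest saline lane, and the withdrawal and cocaine lanes overlapped. Oprm1 rose by 1.65 ± 0.24 in the withdrawal library against saline, a fold of 4.42 (95% interval 3.51 to 5.62). It rose by 1.45 ± 0.25 in the cocaine library against saline, a fold of 3.83 (3.05 to 4.86). In each of these comparisons only 27 of the 14051 tested genes had a more positive difference. The saline mean of Oprm1, 0.908 RPKM, lies under the filter of 1 RPKM, which the gene passed through its withdrawal and cocaine lanes. This rank is therefore a description only. Between withdrawal and cocaine the lanes overlapped (0.20 ± 0.18, fold 1.15), and the counting interval was 0.988 to 1.35, or 1.03 to 1.29 where each read is counted as a molecule of its own instead of each pair. The reads behind these levels were 633.9 in the withdrawal library, 683.5 in the cocaine library and 191.6 in the saline library.

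The gene model of Oprm1 worked out from the deposited values is 8548 bp long, longer than that of 91.9% of tested genes, against 2420 bp for its longest transcript and 8037 bp for the union of its exons in GENCODE. Long genes as a class were higher in both cocaine-treated libraries, and genes in the same length bin had a median of 0.21 in cocaine against saline. Oprm1 was still called after length centring, at 1.45 in withdrawal and 1.247 in cocaine. It was also called in each fit with 1 lane left out, where its difference lay between 1.51 and 1.86 for withdrawal and between 1.31 and 1.66 for cocaine. Which exons carried the reads was not analysed here. Ipcef1, on the opposite strand, shares 96 bp of exon with Oprm1 in GENCODE and averaged 4.12 ± 0.373 RPKM in the withdrawal library, 4.26 ± 0.431 RPKM in the cocaine library and 3.94 ± 0.203 RPKM in the saline library (SD over 3 lanes), with overlapping lanes in all 3.

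In the striatum, Oprm1 marks the patches (striosomes), islands of medium spiny neurons set in the larger matrix. Of 8 patch genes, Oprm1 was the single one called, in withdrawal and in cocaine against saline, beside 3.96% and 2.93% of all tested genes called higher. Of the other 7, 4 (Kremen1, Sema5b, Bach2 and Tshz1) had positive differences, of 0.36 each in withdrawal and between 0.12 and 0.27 in cocaine. The remaining 3 had negative ones, with Nnat at -0.27 in withdrawal and -0.18 in cocaine, Lypd1 at -0.11 and -0.16, and Pdyn as given above. Without Oprm1, the median of the patch genes was 0.36 for withdrawal and 0.12 for cocaine against saline, beside -0.056 and -0.047 for all tested genes, and 0.079 and 0.033 after length centring. The 6 matrix genes had no call and medians of 0.13 in withdrawal and 0.13 in cocaine against saline, and 0.10 and 0.10 after length centring. Endothelial markers also differed between these libraries: 5 of 6 were called higher in withdrawal (beside 3.96% of all tested genes) and 3 of 6 in cocaine (beside 2.93%) against saline, none was at 0, and their summed level was 63.4 to 72.3 RPKM in the withdrawal lanes, 55.7 to 61.9 RPKM in the cocaine lanes and 41.3 to 42.8 RPKM in the saline lanes. The part of either group of cells in the Oprm1 result was not tested.

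Oprd1, the delta receptor and a main target of enkephalin, had 4.04, 3.78 and 3.04 RPKM in the withdrawal lanes, 2.43, 3.04 and 2.51 RPKM in the cocaine lanes, and 1.74, 1.63 and 2.09 RPKM in the saline lanes. The libraries did not overlap, and the lowest withdrawal lane lay just above the highest cocaine lane. Oprd1 rose by 0.83 ± 0.14 in the withdrawal library against saline (fold 1.97, 95% interval 1.51 to 2.58), and this was 0.88 after length centring. Its difference of 0.45 ± 0.12 between cocaine and saline (fold 1.46, 1.11 to 1.92) and of 0.38 ± 0.14 between withdrawal and cocaine (fold 1.35, 1.06 to 1.73) had no call, and they were 0.49 and 0.38 after length centring.

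Oprk1, the kappa receptor for dynorphin, had 4.03, 7.09 and 5.40 RPKM in the withdrawal lanes, 5.73, 5.81 and 4.64 RPKM in the cocaine lanes, and 4.69, 3.65 and 4.64 RPKM in the saline lanes. The lanes of all 3 libraries overlapped, and the widest spread was that of withdrawal. Its difference from saline was 0.29 ± 0.24 in withdrawal (fold 1.26, 95% interval 1.09 to 1.46) and 0.29 ± 0.14 in cocaine (fold 1.21, 1.05 to 1.39), and neither was called. Both were 0.19 after length centring.

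Oprl1, the nociceptin receptor, had 81.8, 87.8 and 84.6 RPKM in the withdrawal lanes, 92.6, 96.3 and 104 RPKM in the cocaine lanes, and 87.9, 90.4 and 96.2 RPKM in the saline lanes. It was the receptor transcript with the highest level and the smallest relative spread, and its cocaine and saline lanes overlapped. Withdrawal lay below saline by 0.11 ± 0.048 (fold 0.934, 95% interval 0.890 to 0.979) and below cocaine by 0.20 ± 0.058 (fold 0.867, 0.826 to 0.909), with no overlap of lanes in either case and no call. After length centring its difference from saline was -0.046 in withdrawal and 0.15 in cocaine.

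Across the 8 genes, 2 were called in withdrawal against saline (Oprm1 and Oprd1, both higher), beside 7.33% of the 14051 tested genes. In cocaine against saline 2 were called (Oprm1 higher and Pomc lower), beside 5.33% of tested genes. In withdrawal against cocaine 1 was called (Pomc higher), beside 1.02% of tested genes. After length centring 2 were called in withdrawal against saline (Oprm1 and Oprd1, beside 5.47% of tested genes), 1 in cocaine against saline (Oprm1, beside 4.08%) and 1 in withdrawal against cocaine (Pomc, beside 1.01%). The split of all calls depended on the scaling: 54.1% of them were higher in withdrawal against saline and 54.9% in cocaine against saline, but 77.3% and 82.9% after length centring, 70.2% and 68.7% when differences were shifted to a median of 0, and 73.3% and 72.5% when lanes were scaled to a common 75th percentile. The first 2 comparisons share the saline library, so a high or low value there enters both. Lanes did not overlap for 5 of the 8 genes in withdrawal against saline (44.2% of tested genes), for 5 in cocaine against saline (42.1%) and for 5 in withdrawal against cocaine (18.1%). All 4 precursors had negative differences from saline in both treated libraries, with medians of -0.23 in withdrawal and -0.34 in cocaine. Length centring moved these medians to 0.028 and -0.18, so the sign turned in withdrawal, with Pdyn at 0.079 and Pomc at 0.14. Pdyn in withdrawal was also positive, at 0.021 or more, when lanes were scaled to the same 75th percentile or the median difference was set to 0, and Pnoc in cocaine came to 0.0058 after length centring. The receptors had medians of 0.56 in withdrawal and 0.37 in cocaine against saline, and 0.53 and 0.34 after length centring.

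**Figure D2:**
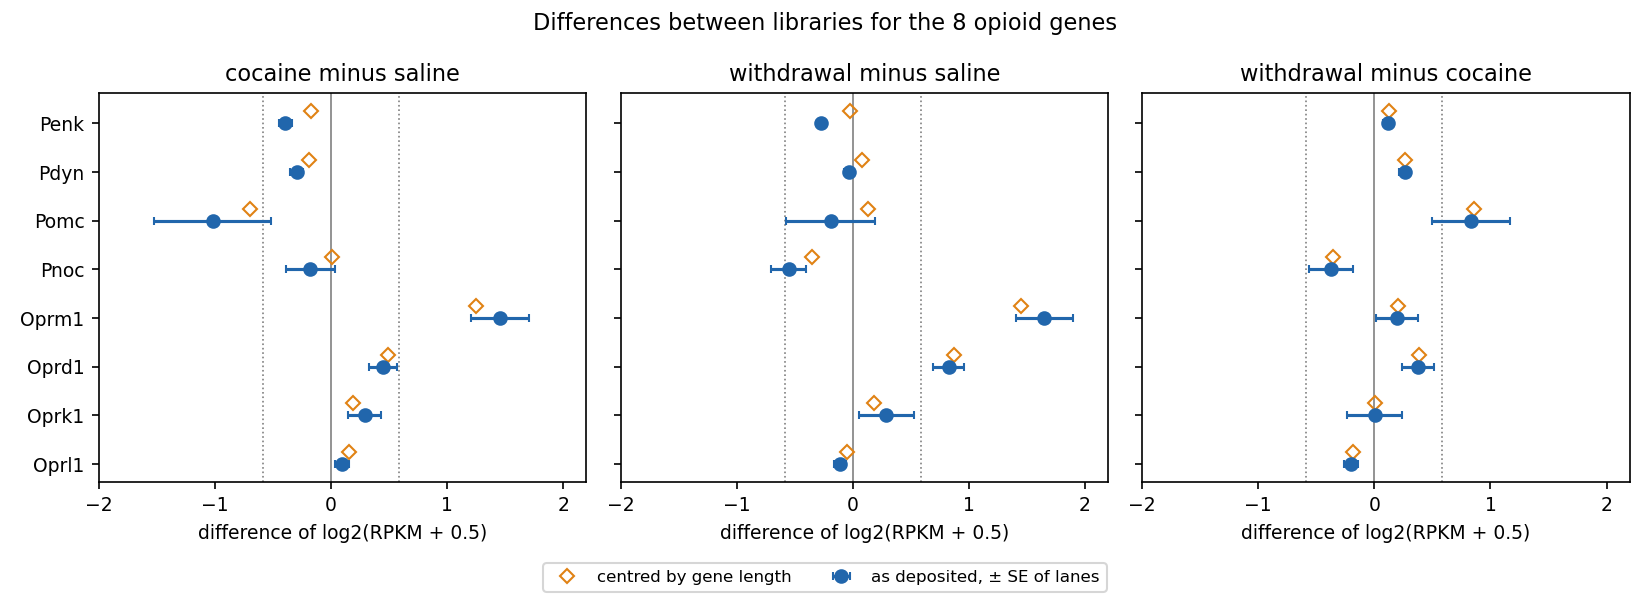
Difference of log2(RPKM + 0.5) between 2 libraries (horizontal axis) for the 8 opioid genes in each of the 3 comparisons. Filled points are the values as deposited with the SE of the lanes, open diamonds are the values after subtracting the median of genes of like length, and dotted lines mark 1.5 times. Oprm1 lies beyond the dotted line against saline with and without length centring, while Penk lies nearer to 0 against saline after it.

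Gene model length moved with the differences from saline in the whole table. Across the tested genes, the Spearman correlation of length with the difference was 0.422 for withdrawal and 0.464 for cocaine against saline, and 0.013 for withdrawal against cocaine, a description across genes that share the same 2 libraries. The median length was 4572 bp for genes called higher in withdrawal and 4348 bp for those called higher in cocaine, 1519 bp and 1270 bp for those called lower, and 3531 bp for all tested genes. Among the opioid genes, the 4 precursor models are 1142 to 2981 bp long and the 4 receptor models 3558 to 8548 bp, so role and length coincide in this family. The part of length in the differences of single genes was not tested beyond this centring.

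**Figure D3:**
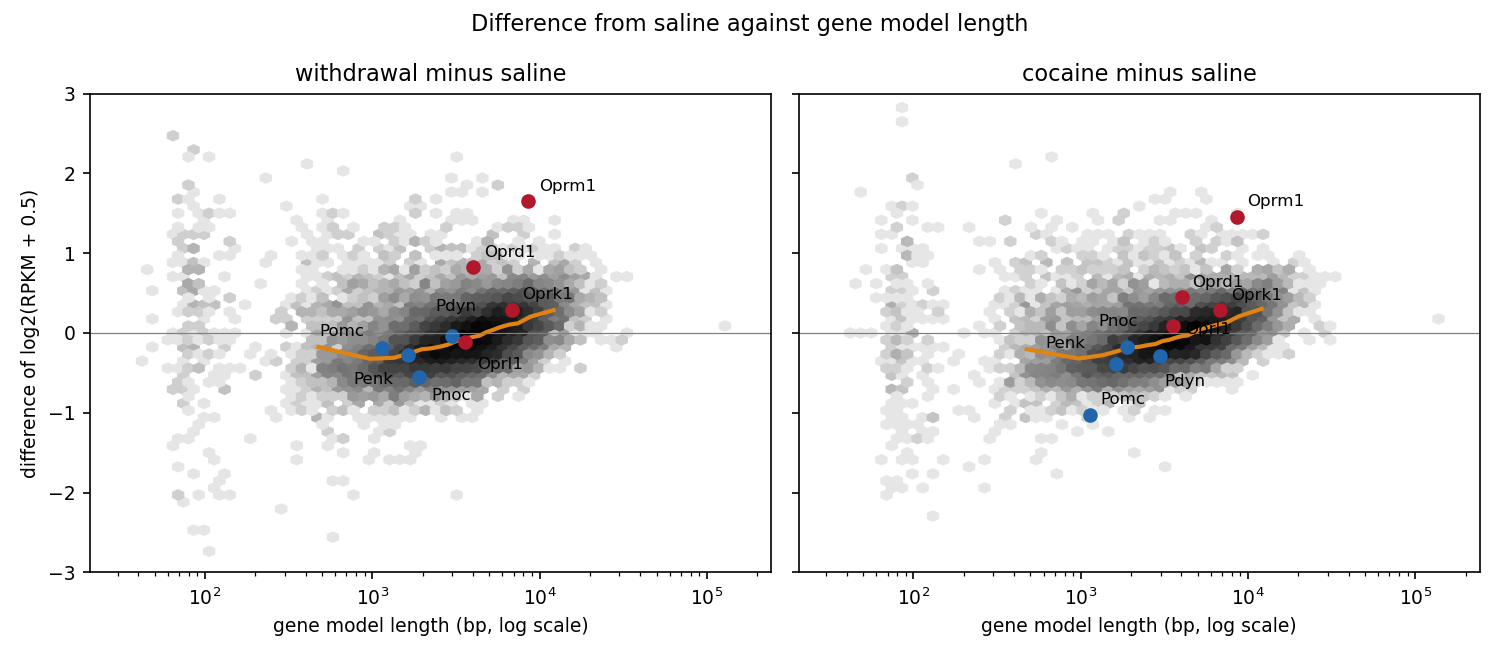
Difference of log2(RPKM + 0.5) from saline (vertical axis) against gene model length (bp, log scale) in withdrawal and in cocaine. Grey hexagons hold the tested genes with a known length, darker where more genes lie, the orange line joins the medians of 20 bins of length, and blue and red points are the opioid precursors and receptors. Penk lies near the line in withdrawal, and Oprm1 lies well above it in both panels.

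The make-up of the 2 groups of transcripts followed from these levels. Penk made up 92.6% of the summed precursor level in the withdrawal library, 92.8% in the cocaine library and 93.2% in the saline library. The share of Pdyn was 6.00 ± 0.184% in withdrawal, 5.44 ± 0.0641% in cocaine and 5.11 ± 0.0623% in saline (SD over 3 lanes), and the libraries did not overlap. The ratio of Penk to Pdyn was accordingly 15.4 ± 0.534 in withdrawal, 17.1 ± 0.139 in cocaine and 18.2 ± 0.246 in saline (SD over 3 lanes). These shares and ratios are as deposited. After length centring, the log2 differences from saline in cocaine were -0.17 for Penk and -0.19 for Pdyn, so Penk no longer fell more than Pdyn. In withdrawal they were -0.023 for Penk and 0.079 for Pdyn. Oprl1 made up 86.7 ± 0.654% of the summed receptor level in withdrawal, 89.6 ± 1.19% in cocaine and 92.8 ± 0.376% in saline. The mu, delta and kappa receptors together reached 13.0 ± 1.04 RPKM in withdrawal, 11.4 ± 1.13 RPKM in cocaine and 7.06 ± 0.393 RPKM in saline. Of that sum, Oprm1 supplied 30.0 ± 6.48% in withdrawal, 29.1 ± 4.09% in cocaine and 13.1 ± 6.21% in saline, and Oprk1 supplied 42.1 ± 9.30%, 47.5 ± 4.83% and 61.2 ± 5.31%. The share of Oprd1 was 27.9 ± 3.64% in withdrawal, 23.4 ± 0.815% in cocaine and 25.7 ± 2.28% in saline, and the lanes of saline overlapped those of withdrawal. The receptor shares depend on the gene models, above all on the 8548 bp model of Oprm1. How another model would move its share was not analysed.

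**Figure D4:**
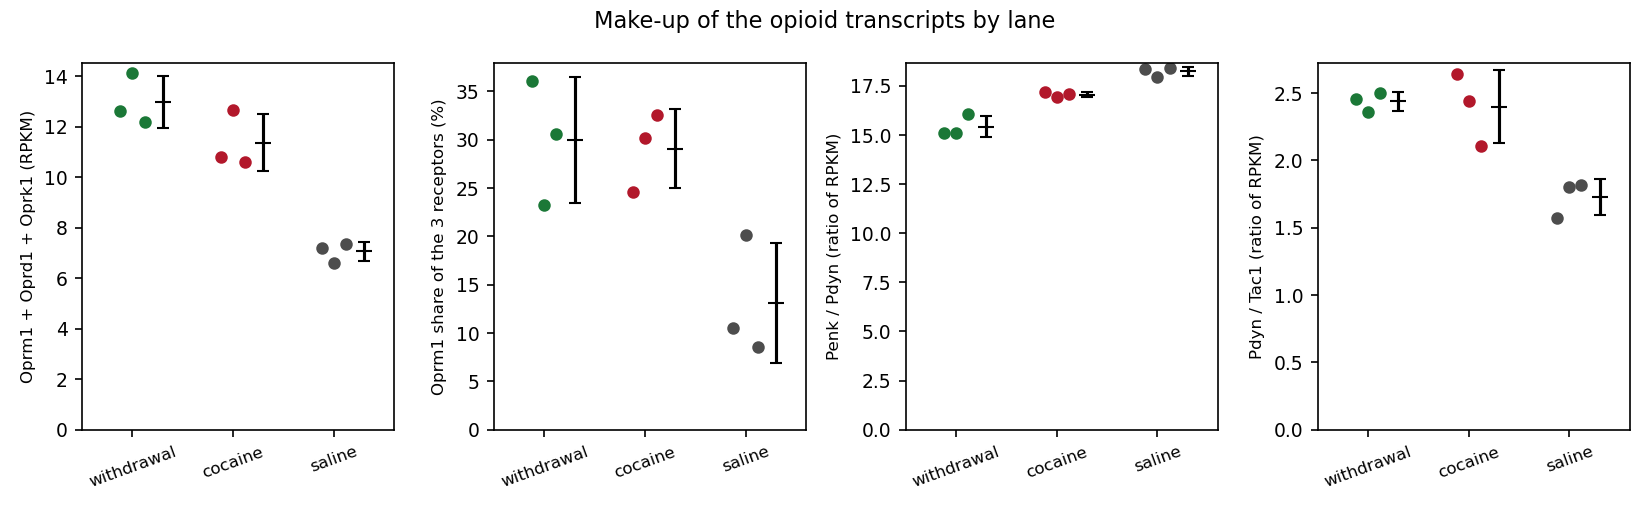
From left to right, the summed level of Oprm1, Oprd1 and Oprk1 (RPKM), the share of Oprm1 in that sum (%), the ratio of Penk to Pdyn and the ratio of Pdyn to Tac1, by lane in the withdrawal, cocaine and saline libraries. Points are lanes and black bars the mean ± SD of 3 lanes of 1 library. The saline lanes lie below all others in the first, second and last panels and above them in the third. All values are as deposited, without length centring.

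Promoter sequence from RefSeq (GRCm38.p6, another build than the one used for the reads) was at hand for 5 of the 8 genes, Pdyn, Pomc, Oprm1, Oprd1 and Oprl1, with 10 start sites in all. The 250 bases before the start are shown, 5′ to 3′ on the strand of the gene, for the 3 genes called in at least 1 comparison, since these are the promoters whose transcripts differed between libraries. Each was searched on both strands for TGACGTCA (the full cyclic AMP response element), TGACG (its core, which lies within TGACGTCA), TGANTCA (the AP-1 element, bound by Fos and Jun proteins) and TATAAA (the TATA box), and a match is set in capitals.
Oprm1, upstream start (chr10:6758343-6758592, plus strand): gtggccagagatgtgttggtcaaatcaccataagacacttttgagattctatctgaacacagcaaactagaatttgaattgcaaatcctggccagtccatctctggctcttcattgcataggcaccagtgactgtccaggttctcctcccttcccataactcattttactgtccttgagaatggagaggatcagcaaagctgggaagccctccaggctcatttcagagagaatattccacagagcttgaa
Oprm1, downstream start (chr10:6788320-6788569, plus strand): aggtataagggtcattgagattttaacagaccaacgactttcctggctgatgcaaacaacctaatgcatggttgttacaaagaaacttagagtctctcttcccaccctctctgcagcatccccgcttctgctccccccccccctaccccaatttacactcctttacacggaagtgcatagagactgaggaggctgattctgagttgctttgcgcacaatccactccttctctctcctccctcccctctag
Oprd1 (chr4:132144487-132144736, minus strand): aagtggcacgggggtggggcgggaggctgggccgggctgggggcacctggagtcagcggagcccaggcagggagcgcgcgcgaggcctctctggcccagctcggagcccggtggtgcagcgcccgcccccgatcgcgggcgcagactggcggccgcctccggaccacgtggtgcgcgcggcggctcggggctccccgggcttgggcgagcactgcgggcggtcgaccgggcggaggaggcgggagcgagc
Pomc (chr12:3954695-3954944, plus strand): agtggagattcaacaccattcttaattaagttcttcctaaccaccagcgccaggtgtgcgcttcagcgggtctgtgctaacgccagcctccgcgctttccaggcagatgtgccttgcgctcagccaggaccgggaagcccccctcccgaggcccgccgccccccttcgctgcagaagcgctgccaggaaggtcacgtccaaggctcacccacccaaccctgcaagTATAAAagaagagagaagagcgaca
The only match in these 4 windows was TATAAA in Pomc, which starts 25 bases before the transcription start. Oprd1 has no match in a window that is 80% G and C, and neither Oprm1 window shown, at 45.6% and 50% G and C, has one. A further Oprm1 window (chr10:6788326-6788575, 50.8% G and C), which overlaps the downstream one, is not shown and has no match either. Among the other members, Oprl1 has TATAAA on the reverse strand 140 bases before its first start, and the Pdyn windows hold none of the motifs. Of 32851 mouse promoter windows of the same length, 1.55% hold TGACGTCA, 17.8% hold TGACG, 6.75% hold TGANTCA and 12.4% hold TATAAA.

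The enzymes and carriers that turn precursors into peptides showed no call in any comparison. Of all tested genes 7.33% were called in withdrawal against saline, 5.33% in cocaine against saline and 1.02% in withdrawal against cocaine. For lists of 12 genes, as here and in the next 2 lists, no call is near these shares. Of 12 tested genes, among them the prohormone convertases Pcsk1 and Pcsk2 and carboxypeptidase E, the median difference was -0.35 in withdrawal and -0.24 in cocaine against saline, beside -0.056 and -0.047 for all tested genes, and -0.17 and -0.089 after length centring. The largest difference belonged to Chgb, a granin of the secretory granule, at 52.5 RPKM in withdrawal against 75.3 RPKM in saline (-0.52 ± 0.046, not called). Peptidases that break opioid peptides down, such as neprilysin (Mme), had no call among 12 tested genes and medians of 0.052 in withdrawal and 0.061 in cocaine against saline. The largest difference was that of Cpd (0.35 ± 0.038 in cocaine against saline). The subunits of inhibitory G proteins had no call among 12 tested genes either. Their medians of -0.017 in withdrawal and -0.039 in cocaine turned to 0.055 and 0.032 under 75th percentile scaling, and the largest difference was that of Gng3 (-0.43 ± 0.061 in cocaine against saline).

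Of 14 effector genes downstream of the receptors, 4 were called higher in withdrawal (beside 3.96% of all tested genes) and 2 in cocaine (beside 2.93%) against saline, and none in withdrawal against cocaine. After length centring 2 were called in withdrawal and 2 in cocaine. Their median differences were 0.18 in withdrawal and 0.22 in cocaine, and 0.10 and 0.11 after length centring. Adcy9, an adenylyl cyclase, rose by 1.14 ± 0.052 in withdrawal and by 0.89 ± 0.055 in cocaine, with means of 16.1, 13.5 and 7.03 RPKM in the withdrawal, cocaine and saline libraries. Kcnj6, a subunit of the potassium channels opened by inhibitory G proteins, rose by 0.74 ± 0.22 in withdrawal and by 0.79 ± 0.16 in cocaine against saline. Its saline mean of 0.941 RPKM lies under the filter of 1 RPKM, which it passed through the treated lanes. Adcy1 (0.67 ± 0.052) and the calcium channel gene Cacna1a (0.63 ± 0.091) were called in withdrawal as deposited and under 75th percentile scaling, and their calls were lost after length centring. Cacna1a in cocaine (0.56, not called) was called under 75th percentile scaling, at 0.63. Of 17 genes that regulate such receptors, Grk5, a kinase that phosphorylates them, was the single one called, at 0.59 ± 0.18 in withdrawal and 0.62 ± 0.18 in cocaine against saline. That count is near the share called in either direction among all tested genes, 7.33% in withdrawal and 5.33% in cocaine. The medians of these 17 genes were -0.025 in withdrawal, where length centring turned the sign (0.039), and -0.11 in cocaine. Npffr1, a receptor of neuropeptide FF, which opposes opioid actions, was the only call among 9 genes related to opioids by name or binding, at 0.75 ± 0.46 in withdrawal against saline, beside widely spread saline lanes (2.22 ± 1.32 RPKM, SD over 3 lanes). Of all tested genes 7.33% were called in that comparison, so 1 of 9 is not far from the share.

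Of 17 tested factors linked to transcription of the precursors, Fos fell by 0.71 ± 0.21 in cocaine against saline and Crtc1, a coactivator of CREB, rose by 0.64 ± 0.041 in withdrawal against saline, and both calls were lost after length centring. Each was the only call of the list in its comparison, near the share of all tested genes (5.33% in cocaine and 7.33% in withdrawal). Fosl1 in cocaine (0.41, not called) was called after length centring (0.59), and Crebbp in withdrawal (0.58, not called) under 75th percentile scaling (0.65). The medians of these 17 genes, -0.043 in withdrawal and -0.010 in cocaine, turned to 0.017 and 0.060 under 75th percentile scaling. The D2 medium spiny neuron genes, Penk among them, had a median of 0.12 in withdrawal and -0.32 in cocaine against saline and of 0.30 in withdrawal against cocaine. Their 1 call was Gpr52, higher in withdrawal against saline (0.61 ± 0.092), beside 3.96% of all tested genes called higher. After length centring the medians were 0.21 in withdrawal and -0.13 in cocaine against saline, and Gpr52 was also called in cocaine (0.66). Adora2a, the adenosine receptor of these neurons, had 90.7 ± 2.29 RPKM in withdrawal, 64.2 ± 0.213 RPKM in cocaine and 91.4 ± 4.34 RPKM in saline. Penk in withdrawal stayed under all saline lanes as deposited, but its difference from saline was -0.023 after length centring. The D1 medium spiny neuron genes, Pdyn among them, had medians of -0.11 in withdrawal and -0.14 in cocaine against saline. Tac1 was their only call, lower in cocaine against saline, beside 2.41% of all tested genes called lower. The median of the D1 genes in withdrawal turned to 0.016 after length centring.

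Among at least 9491 genes that averaged 5 RPKM or more, the nearest profiles over the 9 lanes, by root mean square distance of centred log2 values, were named for 3 members as a description. Nearest to Penk were Ndufb7, Habp4 and Gnl1, at distances of 0.044, 0.046 and 0.049. Nearest to Pdyn was Scn4b, a sodium channel subunit, at 0.039, followed by Gsk3a at 0.051 and Kcnip2 at 0.052. Scn4b averaged 56.7 RPKM in withdrawal, 45.5 RPKM in cocaine and 58.2 RPKM in saline. Nearest to Oprm1 were Sv2c, a synaptic vesicle protein, F630040L22Rik and Ksr2, at the larger distances of 0.23, 0.23 and 0.24. Sv2c averaged 26.7 RPKM in withdrawal, 22.3 RPKM in cocaine and 7.58 RPKM in saline.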

How the data were processed

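Per the labels' protocols, poly(A) RNA of nucleus accumbens punches, pooled over 8 mice per group, was copied with random primers, size-selected to inserts of about 200 bp and sequenced with 37 cycles from each end, 1 library per group in 3 lanes. The authors deposited RPKM per gene for each lane and for each library, with read totals per the file headers (5546362 to 12026754 per lane). Per the submitters' processing notes, Bowtie 0.12.7 and genome mm9 were used. The read counter and the annotation are not given in the sources used here. Titles of the samples gave the group and the lane.

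RPKM times lane total times gene length gave whole numbers once multiplied by 37, to within 2e-13 in relative terms. The smallest length that did so was taken as the gene model length (times 37 for 107 genes, and none for 3 genes). Reads are therefore not whole numbers and no count model was used. Values were taken as log2(RPKM + 0.5). Lanes of a library had a median SD of 0.114 to 0.130 in log2 units, and lane correlations were 0.976 to 0.985. For fold intervals, reads were divided by 2, since both ends of a fragment may have been counted. Length centring subtracts the median difference of genes in 1 of 20 bins of length. Tested on simulated lanes of the cocaine and saline libraries (21423 genes, of which 14051 were scored), the call rule called 86 of 13851 unchanged genes and found 50% of genes changed 1.5 times, 84% of those changed 2 times and all of those changed 3 or 4 times. Each simulated lane was drawn round 1 mean per gene with the spread of its lanes. These rates therefore cover lane noise only, without differences between libraries or animals and without the trend with gene length.

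The opioid genes and all gene lists were chosen with earlier results of these data known. Named besides the 8 genes were up to 3 called members of a list with the largest differences (the largest uncalled one where none was called) and the 3 nearest profiles for Penk, Pdyn and Oprm1; other genes named from a list were chosen after their values were seen. Alternatives were the pseudocount, the filter, the size limit, the lane condition, 3 ways of centring or scaling, the library values, leaving out each lane and, for fold intervals, reads not divided. Python 3.11.15, numpy 2.4.6, pandas 2.3.3 and scipy 1.17.1 were used.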

Additional observations from a re-analysis of the deposited data

How the results depend on the processing

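No paired analysis was possible because lane numbers mark technical runs of 1 library per group and no test was made. The number of opioid genes called (2 in withdrawal against saline, 2 in cocaine against saline and 1 in withdrawal against cocaine) did not move with a pseudocount of 0.1 or 1, without a filter, without the lane condition, with the median difference set to 0, with scaling to the 75th percentile or with the library values. A filter of 5 RPKM left 0, 0 and 0 calls, since it removes Oprm1, Oprd1 and Pomc. A size limit of 25% gave 3 in withdrawal against saline, 4 in cocaine against saline (Penk, Pomc, Oprm1 and Oprd1) and 2 in withdrawal against cocaine (Pomc and Oprd1). A limit of 2 times left 1 in withdrawal against saline (Oprm1), 2 in cocaine against saline and 0 in withdrawal against cocaine. Length centring left 1 in cocaine against saline (Oprm1). With each lane left out in turn, the counts ranged from 2 to 3 in withdrawal against saline, from 2 to 2 in cocaine against saline and from 0 to 1 in withdrawal against cocaine, where leaving out cocaine lane 2 ended the Pomc call. No called difference changed sign. Differences near 0 did: Pdyn in withdrawal against saline (0.021 to 0.079 under the 3 scalings), Pnoc in cocaine against saline (0.0058 after length centring), Pomc in withdrawal against saline (0.14 after length centring, 0.18 without saline lane 3) and Oprk1 in withdrawal against cocaine (-0.18 to -0.00092). With reads not divided by 2, 1 counting interval moved to exclude no difference, that of Oprm1 in withdrawal against cocaine (1.03 to 1.29). Depth limits Pomc most, with as few as 6 reads in a lane, and the design has no animal or library replicate.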
